A study of Penicillium oxalicum with 6 samples.

Results

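In mycelium of Penicillium oxalicum grown on cellulose, 60 of the 9834 genes lay in 13 stretches where at least 4 genes with consecutive identifiers all had a level in a POX05503 mutant of at least 2 times that in the Ku70 mutant. The members were chosen on the measured values themselves. For each gene, R was the log2 ratio of the mean FPKM (fragments scaled to gene length and library size) of 3 MuPOX05503 libraries over that of 3 Ku70 libraries, with 1 FPKM added to both means. A run was 4 or more consecutive identifier numbers that all had R of 1 or higher. The sign and the least size of every member's difference are therefore fixed by the choice. They are described here and not tested.

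Total RNA was sequenced from 2 strains, MuPOX05503, mutated in POX05503, and Ku70, mutated in Ku70, with 3 libraries each. All were collected after 24 h of shaking at 28 °C and 180 rpm, where about 1 g of hyphae had been moved to 100 mL of medium holding 1% Avicel, a purified crystalline cellulose. Ku70 acts in DNA end joining, and fungal strains that lack it are used as parents for gene replacement. The growth protocol mentions only spores of the Ku70 mutant, and whether MuPOX05503 carries that mutation as well is not stated, nor are separate cultures or the number of transformants. The series is described as a study of protein kinases that regulate cellulase and xylanase genes.

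Expected counts, the reads assigned to genes with shared reads split between them, summed to between 13653016 and 13843879 per library of MuPOX05503 and between 13936580.3 and 14263916 per library of Ku70. POX05503 itself had a count of 0 in each MuPOX05503 library, against 539, 529 and 470 in the Ku70 libraries. Log2(FPKM + 1) correlated across all genes at 0.989 to 0.995 for 2 libraries from the same strain, and at 0.892 to 0.902 for 2 from different strains. In bulk RNA, more RNA per cell and more of the cells that express a gene cannot be told apart.

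Genes of fungal genomes are not always placed at random. In filamentous fungi, enzymes, transporters and regulators that serve 1 pathway of secondary metabolism or nutrient use are often encoded side by side and expressed together, and adjacent genes can also share a regulatory region or overlapping transcripts. Such stretches are usually recognised from the genes' products and their order on the chromosome. Neither is given here. The files pair no identifier with a product, and none of the 9834 was found in RefSeq's table of genes for assembly ASM172317v3. The identifiers run from POX00001 to POX09834 with 0 missing numbers, but whether successive numbers are neighbours on a chromosome is not known, so the stretches are called runs of consecutive identifiers. No role is given to any member for the same reason.

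Genes with R of 1 or higher were common enough that most of them stood outside runs. They numbered 1052, which is 10.7% of all genes, and 619 of them had no such gene directly before or after. Of the genes numbered directly after one with R of 1 or higher, 23.9% also had it, against 9.12% of those after a gene with R under 1. There were 134 runs of 2 and 35 of 3, and the 13 longer runs comprised 8 of 4 genes, 3 of 5, 1 of 6 and 1 of 7. The 60 members made up 5.70% of the genes with R of 1 or higher.

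**Figure D1:**
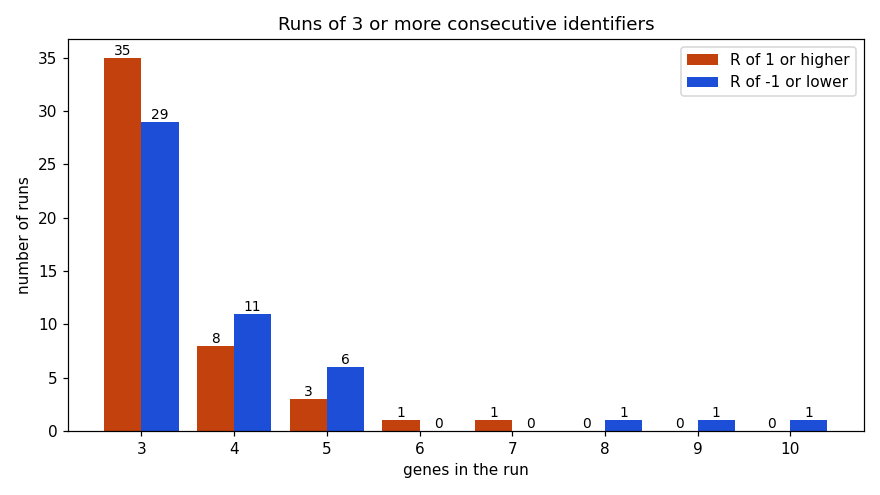
Number of runs (vertical axis) by the number of consecutive identifiers in the run (horizontal axis), for genes with R of 1 or higher and genes with R of -1 or lower; runs of 1 and 2 genes are not drawn. Runs of higher genes ended at 7 genes, and those of lower genes reached 10.

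Runs in the opposite direction were more numerous and longer. Of the 985 genes with R of -1 or lower, 101 lay in 20 runs of 4 or more, up to 10 genes long. The median over runs of the mean R was 1.84 in the rising runs and -2.38 in the falling ones. Members of rising runs had a median level of 49.99 FPKM in MuPOX05503 and 12.998 FPKM in Ku70. Members of falling runs had a median of 7.93 FPKM in MuPOX05503 and 72.2 FPKM in Ku70. Medians over all 8801 genes tested below were 28.4 FPKM in MuPOX05503 and 25.5 FPKM in Ku70.

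The threshold cut through a continuous range. The members nearest to it from above were POX00249 (R 1.05), POX01433 (R 1.06) and POX04225 (R 1.07), and 11 of the 60 had R under 1.2. The gene nearest to it among those just before or after a run was POX04223, with R of 0.66. Runs of exactly 3 genes, just short of the length asked for, had R from 1.02 to 8.51, with a median of 1.58 over their 105 genes, against 1.82 over the 60 members. In 5 of these 35 runs the gene just before or just after the run, not a member of it, had R of at least 0.8.

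As a group, the 60 members took 2.06%, 2.20% and 2.12% of all counts in the MuPOX05503 libraries, against 0.447%, 0.366% and 0.423% in the Ku70 libraries. The mean share was 2.12 ± 0.0688% in MuPOX05503 and 0.412 ± 0.0418% in Ku70 (SD, n = 3 libraries, here and for every level), a ratio of 5.16. An SD of R is taken over genes, not libraries. Their R ranged from 1.05 to 5.001, with 26 members at 2 or higher and 12 at 3 or higher. Levels spanned 1.81 to 1450.1 FPKM in MuPOX05503 and 0 to 333 FPKM in Ku70. In MuPOX05503, 25 members exceeded 100 FPKM and 9 were under 5 FPKM. In Ku70, 5 members exceeded 100 FPKM, 23 were under 5 FPKM and 11 were under 1 FPKM.

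**Figure D2:**
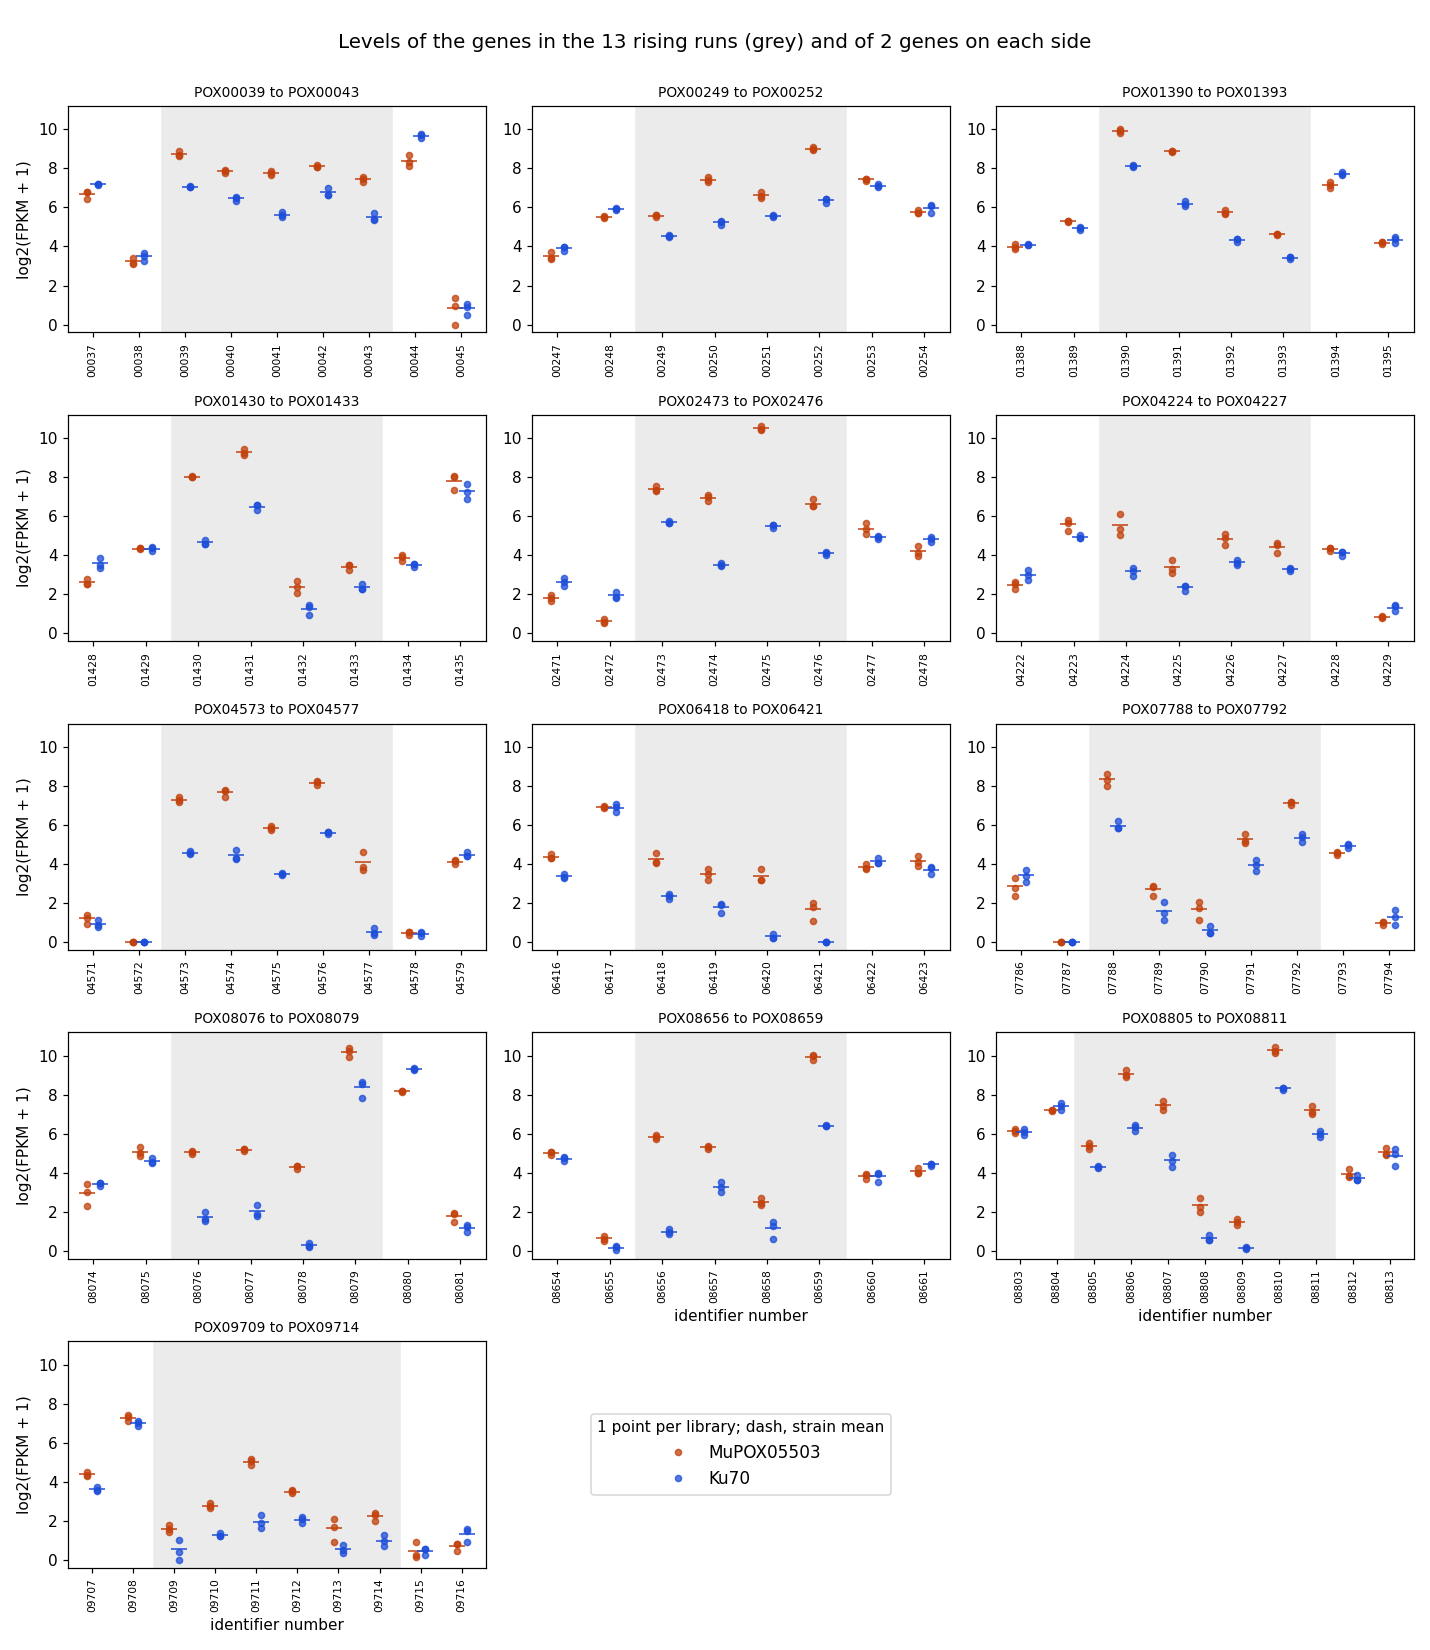
Level of every member of the 13 runs (grey band) and of the 2 genes on each side, as log2(FPKM + 1) on the vertical axis by identifier number on the horizontal axis; points are single libraries and dashes the strain means. Within the grey bands every MuPOX05503 point lies above every Ku70 point of the same gene, while genes outside the bands mostly lie close together, and POX00044, POX02472 and POX08080 lie lower in MuPOX05503.

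With 1 FPKM added, the run POX02473 to POX02476 had the highest mean R and held the member with the highest R. With 0.5 FPKM added, POX08076 to POX08079 had the higher mean R, 3.35 against 3.20. With 0.1 FPKM added, POX02473 to POX02476 had a mean R of 3.22. It then lay below POX08076 to POX08079 (3.72), POX06418 to POX06421 (3.38) and POX08656 to POX08659 (3.30). Without any added value, POX08078, POX08656, POX06420 and POX04577, all scarce in Ku70, had larger ratios of mean FPKM (80.9, 57.3, 41.0 and 36.0) than POX02475. POX02475 measured 1559, 1378 and 1413 FPKM in the MuPOX05503 libraries, against 46.5, 41.0 and 45.5 FPKM in the Ku70 libraries. Its R was 5.001, a ratio of mean FPKM of 32.7, and no library of one strain came near those of the other. This gene was also the most abundant of all 60 in MuPOX05503, whereas in Ku70 the first gene of its own run, POX02473, was slightly more abundant. POX02473 had the lowest R of the 4 (1.70), at 167 ± 14.98 FPKM in MuPOX05503 and 50.5 ± 2.25 FPKM in Ku70. Between them in R lay POX02474 (3.44), at 123 ± 14.1 FPKM in MuPOX05503 and 10.5 ± 0.642 FPKM in Ku70, and POX02476 (2.53), at 98.8 ± 15.02 FPKM in MuPOX05503 and 16.3 ± 1.02 FPKM in Ku70. The mean R of the run was 3.17. Directly before it, POX02472 had R of -1.33, at 0.533 ± 0.121 FPKM in MuPOX05503 and 2.84 ± 0.418 FPKM in Ku70, and directly after it POX02477 had R of 0.45.

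In the run POX08076 to POX08079, 3 scarce genes stood beside an abundant one. POX08078 gave 19.2, 17.4 and 19.3 FPKM in the MuPOX05503 libraries, against 0.21, 0.32 and 0.16 FPKM in the Ku70 libraries. The last values rest on counts of 4, 6 and 3, so the size of this gene's ratio is loosely fixed. POX08076 measured 32.5 ± 2.28 FPKM in MuPOX05503 and 2.37 ± 0.615 FPKM in Ku70, and POX08077 measured 35.8 ± 1.39 FPKM in MuPOX05503 and 3.08 ± 0.838 FPKM in Ku70. These 3 genes had R of 3.995, 3.31 and 3.17 in the order described. POX08079 followed with R of 1.83, at 991, 1366 and 1206 FPKM in the MuPOX05503 libraries and 396, 225 and 378 FPKM in the Ku70 libraries. It varied more between libraries than the other 3 in absolute terms, and it alone made up 93.2% of the run's summed FPKM in MuPOX05503 and 98.3% in Ku70. The next gene, POX08080, had R of -1.14, at 293 ± 8.06 FPKM in MuPOX05503 and 646 ± 24.99 FPKM in Ku70.

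The run POX08656 to POX08659 had the largest SD of R of the 13, 1.58 with 1 FPKM added. Its first gene, POX08656, was at 60.5, 55.8 and 52.6 FPKM in the MuPOX05503 libraries, against 0.97, 0.82 and 1.16 FPKM in the Ku70 libraries, with R of 4.85. Its last gene, POX08659, was at 888, 1069 and 1030 FPKM in the MuPOX05503 libraries, against 83.2, 85.8 and 82.5 FPKM in the Ku70 libraries, with R of 3.55. Both end genes thus differed by more than 10 times between the strains, from very unequal levels in Ku70. The 2 inner genes differed less. POX08657 measured 39.3 ± 2.19 FPKM in MuPOX05503 and 8.86 ± 1.81 FPKM in Ku70 (R 2.03), and POX08658 measured 4.69 ± 0.745 FPKM in MuPOX05503 and 1.28 ± 0.663 FPKM in Ku70 (R 1.32). POX08659 held 90.8% of the run's summed FPKM in MuPOX05503 and 88.3% in Ku70.

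All 5 genes of the run POX04573 to POX04577 had R above 2. POX04576, its most abundant member, measured 303, 268 and 290 FPKM in the MuPOX05503 libraries, against 49.0, 48.8 and 45.4 FPKM in the Ku70 libraries, with R of 2.56. POX04574 reached 224, 174 and 217 FPKM in the MuPOX05503 libraries and 17.9, 25.9 and 18.8 FPKM in the Ku70 libraries, with R of 3.24. These values show the second MuPOX05503 library as the lowest of its strain for both genes. POX04573 measured 157 ± 13.9 FPKM in MuPOX05503 and 23.1 ± 1.59 FPKM in Ku70 (R 2.71), and POX04575 measured 57.1 ± 4.97 FPKM in MuPOX05503 and 10.2 ± 0.478 FPKM in Ku70 (R 2.37). The last member, POX04577, had the highest R of the run (3.58) at the lowest level. It gave 24.0, 11.8 and 13.5 FPKM in the MuPOX05503 libraries and 0.68, 0.38 and 0.31 FPKM in the Ku70 libraries, where its counts were 9, 5 and 4. On both sides the run met genes with little or no signal, so where the rise ended cannot be read. POX04572, directly before it, had no counts in any of the 6 libraries, and POX04578, directly after it, had R of 0.03 at 0.383 ± 0.100 FPKM in MuPOX05503 and 0.353 ± 0.112 FPKM in Ku70.

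The longest run, POX08805 to POX08811, held 7 genes of widely different levels. Its most abundant gene, POX08810, measured 1216, 1423 and 1117 FPKM in the MuPOX05503 libraries, against 328, 307 and 325 FPKM in the Ku70 libraries, with R of 1.96. POX08806 measured 629, 475 and 521 FPKM in the MuPOX05503 libraries, against 86.9, 69.4 and 80.8 FPKM in the Ku70 libraries, with R of 2.76. POX08807, next to it, had the highest R of the run (2.83), at 177 ± 27.6 FPKM in MuPOX05503 and 24.0 ± 5.37 FPKM in Ku70. The 2 genes at the ends had the lowest R. POX08805 measured 40.8 ± 4.38 FPKM in MuPOX05503 and 18.6 ± 0.631 FPKM in Ku70 (R 1.09), and POX08811 measured 146 ± 23.2 FPKM in MuPOX05503 and 62.6 ± 6.75 FPKM in Ku70 (R 1.21). In the middle, 2 genes were nearly silent in Ku70. POX08808 had counts of 22, 12 and 15 in the MuPOX05503 libraries and 2, 2 and 3 in the Ku70 libraries (R 1.70), and POX08809 had counts of 51, 44 and 37 in the MuPOX05503 libraries and 4, 2 and 3 in the Ku70 libraries (R 1.33). Their R is held down by the added 1 FPKM. Summed over the run, levels were 2163 ± 146 FPKM in MuPOX05503 and 505 ± 24.1 FPKM in Ku70.

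The run of 6, POX09709 to POX09714, was the scarcest of the longer runs, with a summed level of 55.8 ± 2.52 FPKM in MuPOX05503 and 9.37 ± 0.886 FPKM in Ku70. POX09711 stood out in it, at 35.2, 28.0 and 32.2 FPKM in the MuPOX05503 libraries, against 2.04, 3.93 and 2.65 FPKM in the Ku70 libraries (R 3.08). POX09712 measured 10.2 ± 0.662 FPKM in MuPOX05503 and 3.17 ± 0.470 FPKM in Ku70 (R 1.43). The other 4 were at most 5.85 FPKM in MuPOX05503 and at most 1.43 FPKM in Ku70, with R from 1.07 to 1.496. Few counts lie behind these values. POX09709 had counts of 6, 7 and 5 in the MuPOX05503 libraries and 0, 1 and 3 in the Ku70 libraries. POX09713 had 15, 22 and 6 in the MuPOX05503 libraries and 5, 2 and 3 in the Ku70 libraries, so that its lowest MuPOX05503 library (0.89 FPKM) lay just above its highest Ku70 library (0.71 FPKM). POX09714 had 19, 24 and 27 in the MuPOX05503 libraries and 9, 4 and 6 in the Ku70 libraries (R 1.25). POX09710 was the only member whose expected counts were not whole numbers, as estimates are where reads match more than 1 gene, so its level is uncertain (R 1.496). Without the second MuPOX05503 library POX09713 had R of 0.78 and no run of 4 was left. Without the first Ku70 library 5 of the 6 genes stayed in a run, and without the second 4 did.

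The run POX00039 to POX00043 had the smallest SD of R, with all 5 R values between 1.33 and 2.14. POX00039 measured 416, 477 and 401 FPKM in the MuPOX05503 libraries, against 132, 130 and 134 FPKM in the Ku70 libraries (R 1.70). POX00041, with the highest R, measured 235, 216 and 204 FPKM in the MuPOX05503 libraries, against 53.4, 48.4 and 44.5 FPKM in the Ku70 libraries (R 2.14). The libraries of the 2 strains were well apart for both genes. POX00042, with the lowest R, measured 274 ± 11.96 FPKM in MuPOX05503 and 109 ± 17.0 FPKM in Ku70 (R 1.33). POX00040 measured 229 ± 15.1 FPKM in MuPOX05503 and 87.2 ± 5.91 FPKM in Ku70 (R 1.38), and POX00043 measured 174 ± 14.3 FPKM in MuPOX05503 and 44.1 ± 6.12 FPKM in Ku70 (R 1.96). The levels of the 5 genes were also alike, within a factor of 2.47 in MuPOX05503 and 2.99 in Ku70, and they came in the same order in both strains. The gene after the run, POX00044, differed in the opposite direction, at 335 ± 65.8 FPKM in MuPOX05503 and 815 ± 65.1 FPKM in Ku70 (R -1.28).

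In the run POX07788 to POX07792, the 2 ends were more abundant than the middle. POX07788 measured 253, 395 and 321 FPKM in the MuPOX05503 libraries, against 72.6, 56.3 and 57.0 FPKM in the Ku70 libraries (R 2.36). POX07792 measured 128, 146 and 143 FPKM in the MuPOX05503 libraries, against 46.4, 33.6 and 40.5 FPKM in the Ku70 libraries (R 1.77). POX07791 measured 38.2 ± 7.02 FPKM in MuPOX05503 and 14.6 ± 3.14 FPKM in Ku70 (R 1.33). The run is joined by 2 members at the edge of detection. POX07790 had counts of 6, 3 and 8 in the MuPOX05503 libraries and 2, 1 and 1 in the Ku70 libraries (R 1.11), and POX07789 had counts of 41, 40 and 27 in the MuPOX05503 libraries and 8, 12 and 21 in the Ku70 libraries (R 1.10). Without the third MuPOX05503 library POX07790 had R of 0.88, without the first Ku70 library POX07789 had R of 0.90, and in both cases no run of 4 was left. The gene before the run, POX07787, had no counts in any library.

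The 5 remaining runs held 4 genes each. In POX01430 to POX01433, POX01430 had the highest R (3.38), at 259, 261 and 264 FPKM in the MuPOX05503 libraries and 26.8, 23.1 and 22.8 FPKM in the Ku70 libraries. POX01431 was its most abundant gene, at 618 ± 61.5 FPKM in MuPOX05503 and 89.3 ± 7.92 FPKM in Ku70. The lowest R, 1.06, was that of POX01433, at 9.75 ± 0.972 FPKM in MuPOX05503 and 4.14 ± 0.635 FPKM in Ku70. The first pair of genes thus differed by far more than the second pair. This run was lost without the first library of either strain, where POX01432 fell under 1. Its R was 0.96 without that of MuPOX05503 and 0.985 without that of Ku70, against 1.12 with all libraries. POX01432 had counts of 34, 20 and 26 in the MuPOX05503 libraries and 6, 11 and 10 in the Ku70 libraries.

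The run POX01390 to POX01393 lay 37 numbers before it, the shortest step between any 2 runs, the next being 146. Its most abundant gene, POX01390, measured 973, 906 and 1030.1 FPKM in the MuPOX05503 libraries, against 277, 266 and 291 FPKM in the Ku70 libraries (R 1.80). Its highest R was that of POX01391 (2.67), at 467 ± 14.7 FPKM in MuPOX05503 and 72.3 ± 7.08 FPKM in Ku70. The last gene, POX01393, had the lowest R (1.21), at 23.9 ± 0.572 FPKM in MuPOX05503 and 9.82 ± 0.453 FPKM in Ku70. The spread between libraries was small against the difference for all 3.

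In POX00249 to POX00252, genes with a higher and a lower R alternated. POX00252 had the highest R (2.62) and level, at 483, 542 and 504 FPKM in the MuPOX05503 libraries, against 73.4, 86.8 and 86.0 FPKM in the Ku70 libraries. POX00249 had the lowest R (1.05), at 46.9 ± 1.92 FPKM in MuPOX05503 and 22.2 ± 0.596 FPKM in Ku70. Without the first MuPOX05503 library POX00251 had R of 0.99, and the run was lost by that margin.

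The run POX04224 to POX04227 had the lowest mean R of the 13 (1.45) and the widest spread between MuPOX05503 libraries. POX04224 had the highest R (2.39), at 67.8, 31.4 and 39.5 FPKM in the MuPOX05503 libraries, against 9.14, 6.81 and 8.11 FPKM in the Ku70 libraries. POX04225 had the lowest R (1.07), at 12.7, 7.49 and 8.88 FPKM in the MuPOX05503 libraries, against 4.36, 3.50 and 4.46 FPKM in the Ku70 libraries. In both genes the first MuPOX05503 library was the highest. Without it POX04225 had R of 0.85 and the run was lost, and it was also lost without the second Ku70 library, where POX04225 had R of 0.98.

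The run POX06418 to POX06421 was the least expressed, with a summed level of 40.2 ± 8.66 FPKM in MuPOX05503 and 6.80 ± 0.997 FPKM in Ku70. POX06418, its most abundant gene, measured 22.8, 15.6 and 16.2 FPKM in the MuPOX05503 libraries and 4.48, 4.15 and 3.62 FPKM in the Ku70 libraries. POX06419 had the lowest R (1.69), at 10.2 ± 2.16 FPKM in MuPOX05503 and 2.48 ± 0.543 FPKM in Ku70. POX06420 had the highest R (3.10), from counts of 71, 45 and 45 in the MuPOX05503 libraries and 1, 2 and 1 in the Ku70 libraries. POX06421, singled out after its values were seen, was the only member without a count in Ku70. It had counts of 9, 11 and 4 in the MuPOX05503 libraries and none in Ku70. Scaled to library totals and set against a floor of 3 counts for the Ku70 libraries together, it was 8.21-fold higher. The floor allows for counting error in Ku70 only. The 24 counts in MuPOX05503 were taken as exact, so the value is not a full lower bound.

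The rise within a run was uneven in most cases. The range of R over a run's members exceeded 1 in 12 of the 13 runs, the exception being POX00039 to POX00043 with 0.81, and exceeded 2 in 5 runs. The SD of R within a run had a median of 0.72 and lay between 0.35 and 1.58, against an SD of 0.97 over all 60 members. Falling runs had a median SD of 0.72 (0.13 to 2.39). Neighbouring members of a run differed in R by 0.93 on average (47 pairs), other members of the same run by 0.90 (67 pairs) and members of different runs by 1.08 (1656 pairs). The SD of runs with members scarce in Ku70 depended on the added FPKM: with 0.1 FPKM it was 1.00 in POX04573 to POX04577 (0.50 with 1 FPKM) and 0.36 in POX00039 to POX00043 (0.35 with 1 FPKM). With 5 FPKM, POX08076 to POX08079 had the smallest SD, 0.24. Differences between run means held 38.5% of the sum of squares of R over the members. The highest R lay at an end of the run in 6 runs and inside it in 7.

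**Figure D3:**
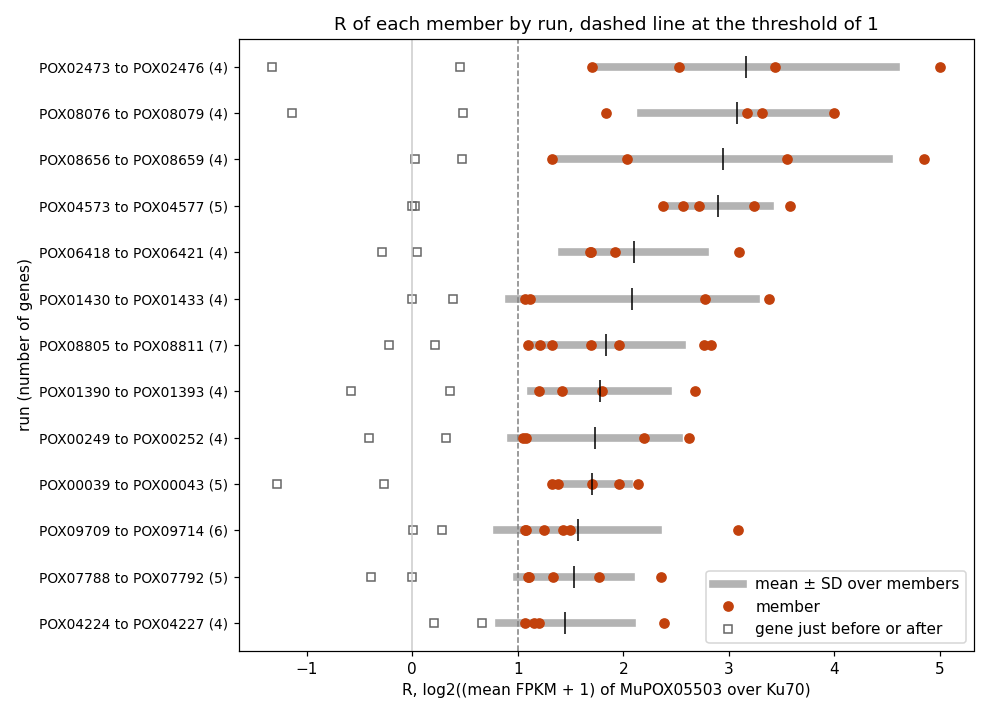
R of each member (filled points) and of the genes just before and after (open squares), on the horizontal axis, for each run with its number of genes on the vertical axis, ordered by mean R; the tick and grey bar give the mean ± SD over members, and the dashed line the threshold of 1. POX00039 to POX00043 is the narrowest, POX08656 to POX08659 spans 3.53, and no flanking gene exceeds 0.66.

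Levels within a run also differed. The most abundant member held over 50% of the run's summed FPKM in MuPOX05503 in 9 runs and in Ku70 in 7 runs. The ratio of the highest to the lowest member's level was 690 in POX08805 to POX08811 in MuPOX05503 and 2668 in Ku70. In 10 of the 13 runs the same gene was the most abundant in both strains, and in 6 runs the whole order of levels was the same. The exceptions for the most abundant gene were POX02473 to POX02476, POX04224 to POX04227 and POX09709 to POX09714. In 5 runs the most abundant gene in MuPOX05503 was also the one with the highest R.

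Just outside the runs the median R lay near 0, where the rule asks only for values under 1. The 26 genes directly before or after a run had R from -1.33 to 0.66 with a median of 0.02. Of these, 15 were above 0, 1 was at 0.5 or higher and 3 were at -1 or lower. Of all 9834 genes, 985 were at -1 or lower. The median R of the tested genes was 0.12, so a median near 0 is not particular to the genes beside runs. Shares of all genes above 0 and at 0.5 or higher were not computed, and nothing is read from these counts. Among the 26 genes, 2 had no counts in any library, and their R of 0 comes only from the added 1 FPKM. That value also holds down R in scarce genes. POX08655, singled out after its values were seen, had R of 0.47 at 0.563 FPKM in MuPOX05503 and 0.127 FPKM in Ku70. For such genes R near 0 does not show an unchanged level. Of the 104 genes 2 to 5 numbers away, 9 had R of 1 or higher (8.65%, against 10.7% of all genes). R of -1 or lower was found in 8 of the 104, beside 985 of all 9834 genes. The median R of the 104 was -0.06. Shorter stretches stood near 2 of the runs, POX04568 and POX04569 (R 2.49 and 1.68) before POX04573, and POX08814 and POX08815 (R 3.11 and 1.36) after POX08811, and these 4 genes were singled out after their values were seen.

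**Figure D4:**
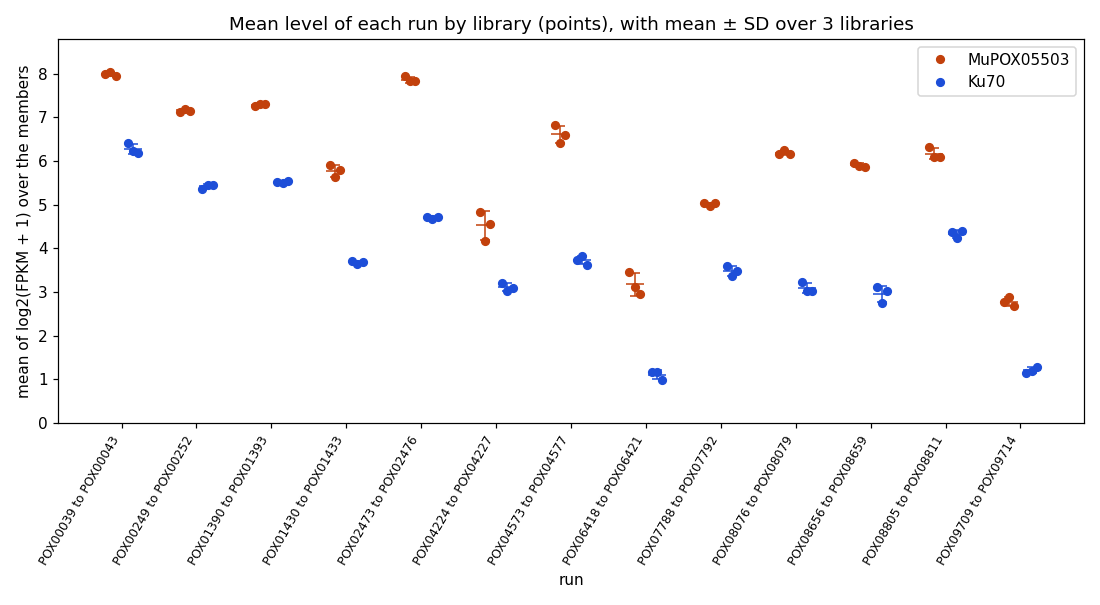
Mean of log2(FPKM + 1) over the members of each run (vertical axis) in each library, with the strain mean ± SD of 3 libraries, by run (horizontal axis). In each of the 13 runs the 3 MuPOX05503 libraries lie above the 3 Ku70 libraries, with the widest spread in the MuPOX05503 libraries of POX04224 to POX04227 (SD 0.34) and the narrowest in those of POX01390 to POX01393 (SD 0.02).

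Averaged over a run's members, log2(FPKM + 1) varied little between libraries of a strain. Its SD ranged from 0.02 to 0.34 in MuPOX05503 and from 0.03 to 0.19 in Ku70. The smallest difference between the strain means was 1.42, in POX04224 to POX04227. The choice of members largely fixes the least size of this difference, so nothing is read from it. All 60 members had 3 MuPOX05503 values above the 3 Ku70 values, as did 38.4% of all genes. With edgeR's quasi-likelihood test on expected counts, 59 members were tested, POX09713 having too few libraries with at least 1 FPKM, and these 59 passed at an adjusted p under 0.05 and were higher, as did 31.9% of the 8801 genes tested. Since these libraries chose the members, nothing is read from either count.

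Runs can also be read in libraries that did not form them. They were formed again from 2 libraries of each strain, and R was read in the remaining library of each, those sharing a letter in their titles. Without the first pair 12 runs with 54 genes formed, and 48 of these (88.9%) had R of 1 or higher in that pair, against 12.1% of all genes. Without the second pair 12 runs with 52 genes formed, and 46 of them (88.5%) had it in the second pair, against 11.7% of all genes. Without the third pair 14 runs with 64 genes formed, and 58 (90.6%) had it in the third pair, against 10.4% of all genes. Genes outside runs that had R of 1 or higher in the same 2 libraries of each strain kept it nearly as often. Their shares were 82.0% of 1001 genes in the first pair, 83.0% of 996 in the second and 80.1% of 1052 in the third. The high shares thus came with selection on the other 2 libraries, and the difference between genes in and outside runs was not tested. All readings of the genes in runs were above 0, the lowest being 0.01, of POX02281, which is no member. Of the 60 members, 46, 48 and 51 were in the runs formed without the first, the second and the third pair.

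Deviations of single libraries from their strain mean also do not enter R. Over the 6 libraries, deviations of log2(FPKM + 1) correlated at a mean r of 0.15 between members of one run (114 pairs) and 0.05 between members of different runs (1656 pairs). Neighbouring members of a run averaged 0.18 (47 pairs), and the 8004 pairs of other neighbouring tested genes averaged 0.13. The difference was not tested. Each r rests on 6 values that sum to 0 within each strain and share library depth, and the means are weak. Single runs ranged from -0.18 in POX01390 to POX01393 to 0.77 in POX04573 to POX04577 (10 pairs) and 0.67 in POX04224 to POX04227 (6 pairs). In the last 2 the members were highest together in the first MuPOX05503 library, apart from POX04226, and lowest together in the second.

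Gene length is a further property outside the rule. The effective length implied by counts and FPKM had a median of 1290.0 bases over the members and 1224 bases over the tested genes. Over the genes with R of 1 or higher, in runs or not, the median was 1177 bases. Of the members, 15 (25%) were under 500 bases, against 15.9% of the tested genes. That share was not computed for the genes with R of 1 or higher, so nothing is read from it. The shortest was POX07790 (180.0 bases) and the longest POX01430 (6634 bases). Low counts and short lengths met in several members, at an end of a run or inside it. Fewer than 10 counts over the 3 Ku70 libraries together were found in 6 members. These were POX06420, POX06421, POX07790, POX08808, POX08809 and POX09709, all under 500 bases except POX08809 (1767 bases).

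The number of runs depended on the scale. R was computed on FPKM as deposited, on which the median R of the tested genes was 0.12. With TMM factors, which move this median by -0.11, 10 runs with 47 genes formed, all of them members. The runs POX00249 to POX00252, POX01430 to POX01433 and POX04224 to POX04227 were lost. The longest run, POX08805 to POX08811, kept 6 of its 7 genes, since POX08805 had R of 0.99. With 5 FPKM added in place of 1, 4 runs with 18 genes formed, POX00039 to POX00043, POX02473 to POX02476, POX04573 to POX04577 and POX08076 to POX08079. Over 23 other ways of forming the runs, POX04573 to POX04577 was kept whole in all 23, and the other 3 just named were kept whole in 22 each. These tallies are not independent checks. They include the 5 FPKM that picked out these 4 runs, and looser rules, such as a threshold of 0.8, that cannot lose a run. POX02473 to POX02476 and POX08076 to POX08079 were lost only where at least 5 genes were asked for, which excludes any run of 4.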

How the data were processed

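Per the file headers, the authors deposited expected counts and FPKM values of every gene for each library. The submitters' processing notes list RSEM 1.2.12, Bowtie2 2.1.0, BWA 0.7.10-r789 and DESeq2 without saying what each did. Which genome build, annotation or strand setting was chosen is not given in the sources used here. Whether reads of overlapping genes were told apart is therefore not known. The members and lists were chosen with earlier results of these data known. R was computed from the FPKM values with a pseudocount of 1, and consecutive identifiers with R of 1 or higher were joined. Expected counts, after rounding to whole numbers, went into edgeR 4.0.16 (R 4.3.3, TMM factors, quasi-likelihood test, Benjamini-Hochberg adjustment) on the 8801 genes with FPKM of at least 1 in at least 3 libraries. The run search was checked on planted runs, and this test on simulated data. limma 3.58.1, DESeq2 1.42.0, other pseudocounts, thresholds, lengths, scalings and each library left out were alternatives. Each run was named by its first and last identifier, with its members of highest and lowest R and highest level. Every member was named in the 5 longest runs and the 3 with the highest mean R. Counts were called not whole beyond a tolerance of 0.005. Library totals of 13653016 to 14263916 limit the precision of genes with few counts. Whether libraries of a strain came from separate cultures is not stated, so their spread may be technical. Random gene orders were not run.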

Additional observations from a re-analysis of the deposited data

How the results depend on the processing

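From 13 runs with 60 genes, the count moved to 22 runs with 106 genes with a pseudocount of 0.1 and to 4 with 18 genes at 5. It moved to 24 runs with 109 genes at a threshold of 0.8 and to 4 with 17 genes at 1.5. Runs of at least 3 genes numbered 48 with 165 genes, and those of at least 5 numbered 5 with 28 genes. Bridging 1 gene under the threshold gave 22 runs with 99 genes. Asking for 5 FPKM in MuPOX05503, an alternative added after the data were seen, gave 7 runs with 30 genes. Leaving out each library gave 11 to 15 runs with 52 to 69 genes, of which 48 to 60 were members. The median over runs of the mean R was 1.84, against 2.24, 1.99 and 1.65 with pseudocounts of 0.1, 0.5 and 5. The longest run was of 5 to 8 genes under the alternatives. With the replicate block on the title letter 59 of 59 tested members passed edgeR. Same-letter deviations correlated at 0.004, -0.034 and -0.015, and those of different letters at -0.064 to 0.085. Deviations sum to 0 within each strain, so these values cannot settle whether the letters mark shared batches. DESeq2 passed 57 of 59. Of 312 values of mean R and of its SD for single runs under alternatives, 270 moved by less than the spread between libraries and 42 by more. None changed sign, which the choice of members largely fixes.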
